A study of Homo sapiens with 6 samples.

Results

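Transcripts of 10 cyclins and cyclin-dependent kinases (CDKs) were followed in HCT116 cells with and without knockdown of NONO, an RNA-binding protein of nuclear paraspeckles. The members are the cyclins and kinases that drive the G1, S and mitotic steps of the cycle, chosen by name, and their rows were found through the Ensembl identifiers that carry these symbols. They make up 10 of the 62492 genes listed for each library. HCT116 is a human colorectal carcinoma line. Polyadenylated RNA was sequenced from 3 siControl libraries, labelled wild type, and 3 siNONO libraries, labelled as NONO knockdown. All cells received an siRNA at 20 nM with the same transfection reagent. Each of Sets 1, 2 and 3 holds 1 library of each group. A single siNONO duplex was used, so what the duplex itself does cannot be told apart from what loss of NONO does, and the time of harvest of these libraries is not given in the sources used here. The Sets are described as biological replicates without naming separate cultures, so p-values measure the spread between these libraries, which may in part be technical.

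Progression through the cell cycle depends on kinases that are active only when bound to a cyclin. D cyclins with CDK4 or CDK6 act in G1 and phosphorylate the retinoblastoma protein, E cyclins with CDK2 act at the entry to S phase, cyclin A2 acts through S phase and G2 with CDK2 and CDK1, and B cyclins with CDK1 drive entry into mitosis. The mRNAs of cyclins A2, B1 and B2 and of CDK1 are known to rise late in the cycle, while those of CDK2 and CDK4 vary little with phase. The members were therefore taken as a G1 group (CCND1, CCND3 and CDK4), an S group (CCNE1, CCNE2, CDK2 and CCNA2) and a mitotic group (CCNB1, CCNB2 and CDK1). In bulk RNA, fewer cells in a phase and less RNA per cell cannot be told apart.

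The total estimated count per library was 32659002, 27491389 and 21765393 in siControl for Sets 1, 2 and 3, and 28715263, 28260060 and 27946591 in siNONO. Levels are given as TPM, the length-scaled transcript level given by RSEM, which allows levels of different genes to be set side by side. Differences between the groups were taken from the counts, as log2 fold changes of siNONO over siControl from edgeR's quasi-likelihood test with the Set as a block. A gene was called where the Benjamini-Hochberg adjusted p was at most 0.05 over all genes tested. NONO itself, the targeted gene on chromosome X of GRCh37 (70474664 to 70521372, plus strand), had 363.17, 330.39 and 406.59 TPM in siControl and 75.66, 75.53 and 81.67 TPM in siNONO. This was a log2 fold change of -2.40 (standard error 0.0337, adjusted p = 2.47e-13 by edgeR), or 18.9% of the siControl level by counts. Of the markers checked for the labelled cell type, 8 of 10 epithelial genes had at least 1 TPM in every library, led by KRT8 at 1180 TPM on average over the 6 libraries, while CDX1 was at 0 counts in all 6 libraries and VIL1 stayed below 1 TPM. The 10 epithelial genes summed to between 2958.54 and 3105.11 TPM in siControl and between 2882.22 and 3206.11 TPM in siNONO, so the groups overlapped. This sum is mostly KRT8, KRT18 and KRT19. Of the 8 epithelial genes tested, 4 were called higher without overlap and none lower, where 23.2% of all genes tested were called higher. They were CLDN7 at 1.09, KRT20 at 1.0, EPCAM at 0.32 and KRT19 at 0.14 on the log2 scale, the last not called in 2 of 15 alternatives, and their part in the results for the members was not tested. All 4 leukocyte markers, 4 of 5 fibroblast markers and both endothelial markers analysed were below 1 TPM in every library, the exception being COL1A1 at 17.6 TPM on average.

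After siNONO, all 3 mitotic members fell, while the D and E cyclin families split internally. By counts, CCND1 and CCNE1, whose products drive G1 and the entry to S phase, rose to 1.35 and 1.41 times the siControl level. CCNE2 and CCNA2 fell to 47.1% and 49.2% of it, and the mitotic members to between 68.2% and 79.6%. CCND3, CDK4 and CDK2 fell less, to between 87.8% and 90.3%. All of these are edgeR estimates from the counts and not ratios of TPM. With limma on log2(TPM + 1), the log2 rise was 0.32 for CCND1 and 0.40 for CCNE1, against 0.44 and 0.49 on the counts. The median of all genes tested was -0.07 on that TPM scale. All 10 members had enough counts to be tested, and 8 of them were called lower and 2 higher. Of the 17000 genes tested in all, 23.4% were called lower and 23.2% higher by the same rule, so that 49.7% of all calls were higher. With limma on log2(TPM + 1) that share was 31.3%. Every member moved in its own direction in all 3 Sets. For 8 of the 10, no siNONO library overlapped a siControl library in CPM (counts scaled to library size by TMM), against 47.8% of all genes tested. The median log2 fold change was -0.18 in the G1 group, -0.58 in the S group and -0.44 in the mitotic group, beside -0.005 for all genes tested.

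**Figure D1:**
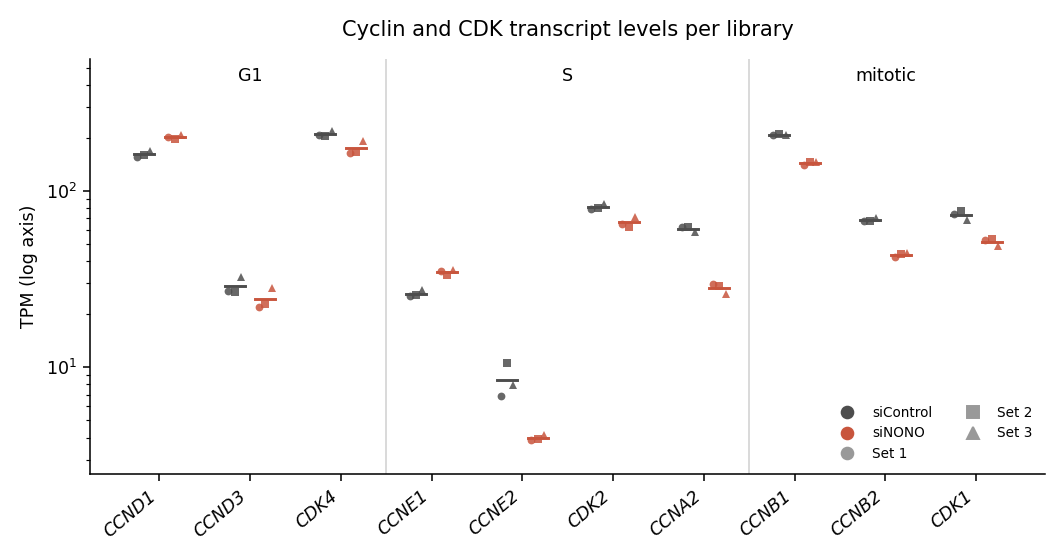
TPM (log axis) of the 10 cyclins and CDKs in each library, with siControl in grey, siNONO in red, a symbol per Set and a bar at the mean of 3 libraries. CCND1 and CCNE1 sit higher in siNONO, CCNE2 and CCNA2 show the widest gaps downward, and for CCND3 the groups overlap.

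In the G1 group, CCND1, on chromosome 11 of GRCh37 (69455924 to 69469242, plus strand), encodes cyclin D1, a target of growth factor and Wnt signalling. Its level was 156.62, 159.97 and 169.28 TPM in siControl and 203.60, 197.16 and 206.71 TPM in siNONO. Every siNONO library lay above every siControl library. The edgeR estimate was a log2 fold change of 0.44 (standard error 0.0282, adjusted p = 9.01e-08 by edgeR), and 0.47, 0.41 and 0.43 in Sets 1, 2 and 3. CCND3, on chromosome 6 (41902672 to 42018095, minus strand), encodes cyclin D3 and went the other way. It had 26.94, 26.69 and 32.65 TPM in siControl and 21.91, 22.85 and 28.16 TPM in siNONO. Set 3 was the highest library of each group, and the siNONO library of Set 3 lay above the siControl libraries of Sets 1 and 2. CCND3 was called at a log2 fold change of -0.18 (standard error 0.0528, adjusted p = 0.0123 by edgeR). At the same estimate, the adjusted p was 0.161 by edgeR without the Set as a block and 0.124 by DESeq2 with it, and CCND3 was not called in either. The call was also lost when the siControl library of Set 1 or 2 or the siNONO library of Set 1 or 2 was left out, with adjusted p-values by edgeR of 0.148, 0.0813, 0.136 and 0.0645.

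CDK4, the catalytic partner of the D cyclins on chromosome 12 (58141510 to 58149796, minus strand), had 208.18, 204.94 and 218.07 TPM in siControl and 164.39, 167.28 and 191.35 TPM in siNONO. Each siNONO library was below each siControl library in TPM, although the groups touched in CPM, where the highest siNONO library had 158.5 and the lowest siControl library 157.4. The edgeR estimate was a log2 fold change of -0.19 (standard error 0.0312, adjusted p = 0.000299 by edgeR), close to that of CCND3. The summed TPM of the D cyclins rose with CCND1, from between 183.56 and 201.93 in siControl to between 220.02 and 234.87 in siNONO. CCND2, the third D cyclin, had at most 3 counts in any library and was not tested.

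In the S group, the E cyclins parted. CCNE1 encodes cyclin E1 and lies on chromosome 19 (30302898 to 30315219, plus strand). It had 25.27, 25.79 and 27.34 TPM in siControl and 35.14, 33.28 and 35.81 TPM in siNONO, with no overlap. The rise of 0.49 on the log2 scale (standard error 0.0497, adjusted p = 4.54e-06 by edgeR) was the highest among the members, and Sets 1, 2 and 3 gave 0.54, 0.44 and 0.49. CCNE2 encodes cyclin E2, which binds the same kinase, and lies on chromosome 8 (95891998 to 95908906, minus strand). It was the least abundant member, at 6.92, 10.65 and 7.94 TPM in siControl and 3.89, 3.93 and 4.14 TPM in siNONO. The siControl libraries were spread more widely than the siNONO libraries, with Set 2 the highest, yet none came down to the siNONO range. CCNE2 had the lowest log2 fold change of the members, at -1.09 (standard error 0.10, adjusted p = 2.24e-06 by edgeR), and only 2.62% of all genes tested had an absolute log2 fold change at least as large. Its counts were modest, from 214.6 to 324.59 per siControl library and from 132.55 to 138.58 per siNONO library. They were fractional in all 6 libraries, as RSEM gives where reads map to more than 1 place. The counts of CDK4 and CCNA2 were also fractional in all 6 libraries, and those of CCND1 in all but the siControl library of Set 3.

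CDK2, the kinase of cyclins E and A on chromosome 12 (56360565 to 56366573, plus strand), changed little. It had 79.39, 79.93 and 84.64 TPM in siControl and 65.17, 62.53 and 71.63 TPM in siNONO. Although the groups did not overlap, its log2 fold change from the counts was the smallest of the members, at -0.15 (standard error 0.0353, adjusted p = 0.00422 by edgeR). It was -0.17, -0.17 and -0.09 in Sets 1, 2 and 3. CDK2 was no longer called without the siControl library of Set 1 or 2 or the siNONO library of Set 2, with adjusted p-values by edgeR of 0.0509, 0.0751 and 0.0529. CCNA2, which encodes cyclin A2 and lies on chromosome 4 (122737599 to 122745038, minus strand), had 62.46, 62.30 and 58.63 TPM in siControl and 29.58, 29.02 and 26.11 TPM in siNONO. Libraries of a group lay close together and the gap between the groups was far wider than their spread. Its log2 fold change of -1.02 (standard error 0.0367) carried the lowest adjusted p of the members, 5.02e-10 by edgeR, and was -1.0, -1.0 and -1.07 in the 3 Sets.

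All 3 mitotic members fell, and each did so in every Set. CCNB1, on chromosome 5 (68462962 to 68474072, plus strand), encodes cyclin B1, the main B cyclin of mitotic entry. It had 206.95, 209.23 and 207.85 TPM in siControl and 141.05, 145.81 and 146.25 TPM in siNONO. The edgeR estimate was -0.44 on the log2 scale (standard error 0.0304, adjusted p = 1.61e-07), with -0.45, -0.44 and -0.43 in Sets 1, 2 and 3. These were the closest values across Sets of any member. CCNB2, on chromosome 15 (59397325 to 59417244, plus strand), encodes cyclin B2, a partner of CDK1 with a smaller share of the B cyclin transcripts. It had 67.21, 67.79 and 70.43 TPM in siControl and 42.43, 44.02 and 44.35 TPM in siNONO, with a log2 fold change of -0.55 (standard error 0.0431, adjusted p = 4.78e-07 by edgeR). CDK1, the mitotic kinase on chromosome 10 (62538089 to 62554610, plus strand), had 73.62, 77.17 and 68.22 TPM in siControl and 52.92, 53.51 and 48.56 TPM in siNONO. Set 3 was the lowest library of each group, and the groups did not overlap. CDK1 fell by 0.33 on the log2 scale (standard error 0.0373, adjusted p = 1.25e-05 by edgeR), less than either B cyclin. On the TPM scale, with limma on log2(TPM + 1), the difference was -0.49 for CDK1 and -0.29 for CDK2, both further below 0 than on the counts, while the median of all genes tested stood at -0.07.

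**Figure D2:**
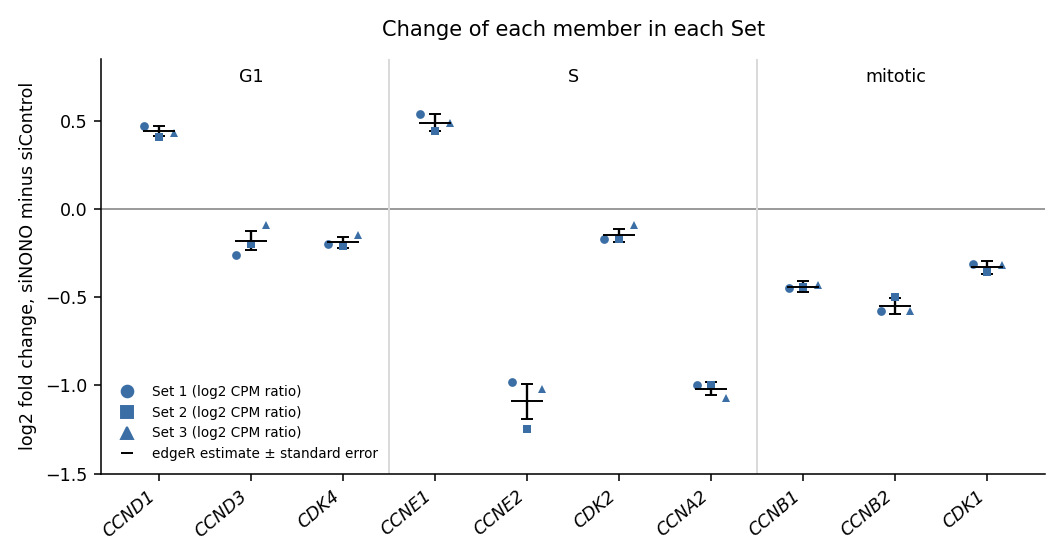
Log2 fold change of siNONO over siControl for each member, as the CPM ratio in each Set (blue symbols) and as the edgeR estimate with its standard error (black). The estimates run from -1.09 for CCNE2 to 0.49 for CCNE1, and the 3 Sets share a sign for every member.

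Since the late cyclins and CDK1 fell together, the sequences around their start sites are shown beside that of CCNE1, which rose. Cell-cycle promoters of this kind are known for the CHR, an element bound by the DREAM and MuvB complexes, for CCAAT boxes bound by NF-Y, and for E2F sites. The letters searched on both strands were TTTGAA and TTCGAA for the CHR, CCAAT for the CCAAT box, and TTTCCCGC, TTTCGCGC, TTTGCCGC and TTTGGCGC for E2F. Promoters were taken from RefSeq (GRCh38.p14) as windows from 250 bases before to 50 bases after a start. Windows were used for 7 of the 10 members, and none was used for CCND1, CDK2 or the second E cyclin. That a member has no window here does not mean that RefSeq lists none for it. Sequences run 5′ to 3′ on the strand of the gene, with each match in capitals. The windows are chr15:59104896-59105195 on the plus strand for CCNB2, chr10:60778228-60778527 on the plus strand for CDK1, chr4:121823834-121824133 on the minus strand for CCNA2 and chr19:29811741-29812040 on the plus strand for CCNE1.
CCNB2: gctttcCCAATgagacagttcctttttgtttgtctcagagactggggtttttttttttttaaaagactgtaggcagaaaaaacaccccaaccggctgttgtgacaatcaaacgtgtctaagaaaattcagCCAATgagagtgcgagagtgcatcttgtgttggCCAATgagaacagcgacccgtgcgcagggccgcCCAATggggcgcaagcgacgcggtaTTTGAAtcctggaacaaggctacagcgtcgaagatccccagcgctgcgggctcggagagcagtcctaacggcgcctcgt
CDK1: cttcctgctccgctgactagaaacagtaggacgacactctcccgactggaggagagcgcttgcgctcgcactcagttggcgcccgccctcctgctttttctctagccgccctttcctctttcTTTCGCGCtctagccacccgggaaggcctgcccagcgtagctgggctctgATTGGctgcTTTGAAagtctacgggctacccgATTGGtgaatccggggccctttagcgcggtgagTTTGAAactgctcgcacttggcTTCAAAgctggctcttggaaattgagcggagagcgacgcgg
CCNA2: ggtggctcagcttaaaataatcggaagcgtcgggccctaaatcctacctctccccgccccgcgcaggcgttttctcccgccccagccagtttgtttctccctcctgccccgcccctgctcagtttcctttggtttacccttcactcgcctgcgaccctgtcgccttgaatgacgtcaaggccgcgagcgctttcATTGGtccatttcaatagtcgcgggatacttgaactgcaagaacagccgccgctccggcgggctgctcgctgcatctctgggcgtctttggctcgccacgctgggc
CCNE1: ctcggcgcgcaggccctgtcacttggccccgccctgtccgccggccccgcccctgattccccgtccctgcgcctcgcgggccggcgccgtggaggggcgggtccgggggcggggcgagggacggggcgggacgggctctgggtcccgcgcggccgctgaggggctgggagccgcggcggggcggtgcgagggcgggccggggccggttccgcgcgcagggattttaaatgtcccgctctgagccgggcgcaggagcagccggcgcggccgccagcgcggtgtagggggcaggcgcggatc

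The CCNB2 window held 4 CCAAT boxes, which begin 244, 120, 87 and 54 bases before the start, and a CHR that begins 29 bases before it. The CDK1 window printed held 3 CHR matches, 69 and 13 bases before the start and 10 bases after it on the opposite strand, together with 2 CCAAT boxes on the opposite strand and an E2F match 128 bases before the start. RefSeq lists a further CDK1 start upstream, whose window (chr10:60778081-60778380, not printed) held fewer matches, with 1 CHR 161 bases and 1 CCAAT box 150 bases before that start, and the same E2F match 20 bases after it. The CCNA2 window held 1 CCAAT box on the opposite strand and neither of the other motifs in these letters. The CCNB1 window, which is not printed, held 2 CCAAT boxes, 87 and 55 bases before the start. The windows of CCNE1 and CDK4 held none of the motifs, and 2 of the 3 CCND3 windows held 1 CCAAT box each. Across all 35116 RefSeq promoters of the same length, 16.4% held a CHR in these letters, 34.6% a CCAAT box and 3.31% an E2F match. These are matches of letters only, and binding was not measured in these data. Other spellings of the elements were not searched, so a window without a match, as for the CHR in CCNA2 and CCNB1, may still hold one.

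Ranked by mean TPM in siControl, CDK4 and CCNB1 stood highest at 210.4 and 208.0, and their libraries overlapped. CCND1 followed, then CDK2, then CDK1 and CCNB2, which overlapped, then CCNA2, then CCND3 and CCNE1, which also overlapped, and CCNE2 was last. In siNONO, CCND1 came first at 202.5 TPM, above CDK4 at 174.3 and CCNB1 at 144.4, with no overlap between them. CCNE1, which had stood below CCNA2 at 26.13 against 61.13 TPM, passed it in siNONO at 34.74 against 28.24 TPM. CCNA2 and CCND3 overlapped in siNONO, and CCNE2 remained last.

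Pairs within a family were compared as ratios of TPM in each library, for 5 pairs, by a two-sided exact permutation test over libraries, in which 3 against 3 cannot go below 0.1. Cyclins E1 and E2 shifted most. CCNE1 exceeded CCNE2 by 3.65, 2.42 and 3.44 times in siControl and by 9.03, 8.47 and 8.65 times in siNONO, a 2.79-fold rise of the ratio (exact permutation p = 0.1, adjusted p = 0.1667). The summed TPM of both was 32.19, 36.44 and 35.28 in siControl and 39.03, 37.21 and 39.95 in siNONO, so the pair changed more in its makeup than in its total. CCND1 exceeded CCND3 by 5.81, 5.99 and 5.18 times in siControl and by 9.29, 8.63 and 7.34 times in siNONO, a 1.48-fold rise (exact permutation p = 0.1, adjusted p = 0.1667). The B cyclins shifted little, though their groups did not overlap, with CCNB1 over CCNB2 at 3.08, 3.09 and 2.95 in siControl and 3.32, 3.31 and 3.30 in siNONO, a 1.09-fold rise (exact permutation p = 0.1, adjusted p = 0.1667). Their summed TPM fell from between 274.16 and 278.28 to between 183.48 and 190.6. For the kinases, the ratio of CDK2 to CDK1 and that of CDK4 to CDK1 each overlapped between the groups, with log2 differences of 0.21 and 0.22 (exact permutation p = 0.3 for each). That test does not use the Sets, and within Sets 1, 2 and 3 the differences were all above 0, at 0.19, 0.17 and 0.25 for CDK2 to CDK1 and at 0.14, 0.24 and 0.30 for CDK4 to CDK1. Without the siNONO library of Set 3 the difference was 0.11 for each pair, and from CPM in place of TPM it was 0.14 for CDK4 to CDK1. CDK6, the other kinase of the D cyclins, supplied 8.51%, 8.16% and 8.09% of the summed CDK4 and CDK6 TPM in siControl and 5.58%, 5.43% and 4.64% in siNONO.

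**Figure D3:**
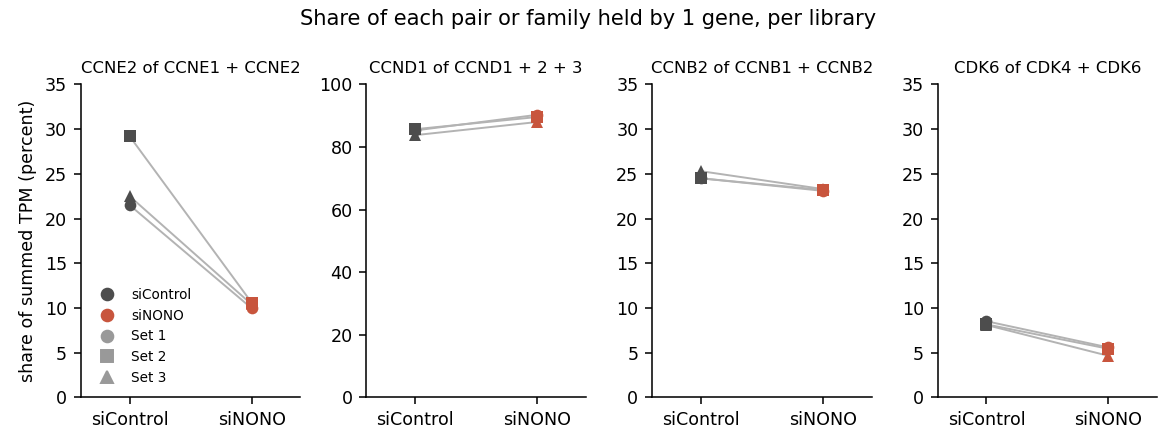
Share of the summed TPM held by 1 gene of a pair or family in each library, in percent, with siControl in grey, siNONO in red, a symbol per Set and lines joining the libraries of a Set. The scale of the CCND1 panel runs to 100 and the others to 35. CCNE2 drops from between 21.5% and 29.2% to between 9.97% and 10.6%, while CCNB2 moves from between 24.5% and 25.3% to between 23.1% and 23.3%.

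The transcript length of each member, weighted by the abundance of its transcripts, was compared between the groups as a readout of which transcripts were present. CDK1 had 1694, 1718 and 1691 bases in siControl and 1778, 1804 and 1777 bases in siNONO, a difference of 85.6 bases. It was the only one of the 10 members whose groups did not overlap in length, with p = 0.1 by a two-sided exact permutation test, the smallest that 3 against 3 can give, and 0.75 after adjustment over 10 members. That test does not use the Sets. Within every Set the siNONO library was also the longer for CDK2, CCND1 and CCNB2, although these groups overlapped. CDK2 was at 1969, 1966 and 1849 bases in siControl and 2005, 2080 and 1911 in siNONO, and CCND1 at 4089, 4064 and 3948 against 4106, 4114 and 4065. For CCNB2 the siNONO library exceeded that of siControl by less than 1 base in Sets 1 and 3. There are 9 transcripts listed for CDK1. The TPM of CDK1, which divides by length, fell further than its counts, at -0.49 with limma on log2(TPM + 1) against -0.33. CCNB1, whose length differed by only -0.47 bases, also fell further, at -0.52 against -0.44. The part of length in these gaps was not tested. For CCNE2 the length was 2087, 1743 and 1949 bases in siControl and 1804, 1850 and 1749 bases in siNONO. The siControl libraries of CCNE2 spanned the whole siNONO range (exact permutation p = 0.4), as did those of CCND3, CDK4 and CCNB1.

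**Figure D4:**
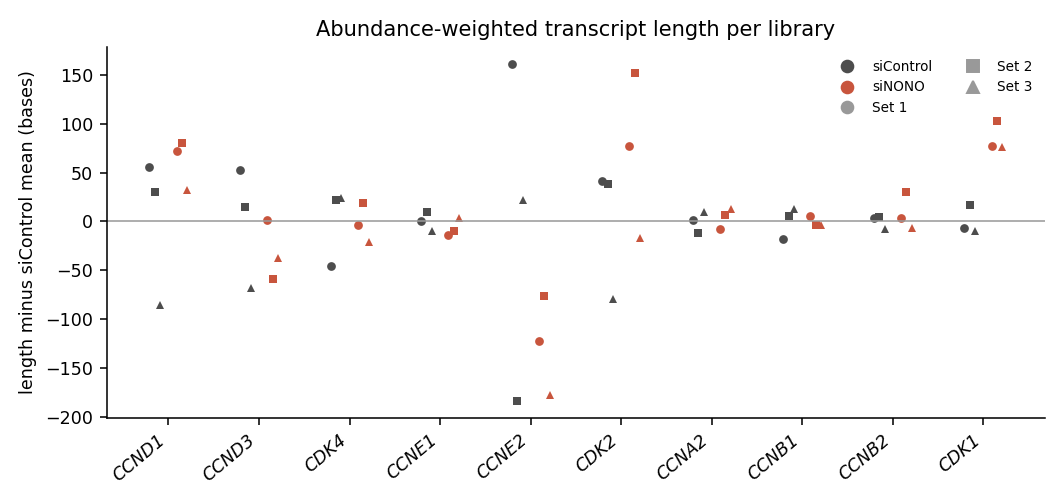
Abundance-weighted transcript length of each member in each library, in bases, as the difference from the mean of the 3 siControl libraries (grey, siControl; red, siNONO; a symbol per Set). The 3 siNONO libraries of CDK1 lie above its siControl libraries, while for every other member the groups overlap.

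Genes that act on the cyclins and CDKs were described by list, each beside the share of all genes tested that was called lower (23.4%) or higher (23.2%). Among 7 CDK inhibitors, 1 rose and 4 fell, and the median log2 fold change was -0.31. The inhibitor that rose was CDKN1A, which encodes p21, a p53 target that binds cyclin E, cyclin A and CDK2 complexes. It lies on chromosome 6 (36644237 to 36655114, plus strand) and had 102.85, 102.08 and 114.76 TPM in siControl and 265.68, 257.72 and 289.64 TPM in siNONO. All siNONO libraries stood far above the siControl libraries. Its log2 fold change of 1.46 (standard error 0.0298, adjusted p = 4.96e-12 by edgeR), or 2.76-fold, exceeded in size that of every member. CDKN1B, which encodes p27, had a log2 fold change of 0.09 with overlapping groups (adjusted p = 0.128 by edgeR). Of the INK4 genes, which inhibit CDK4 and CDK6, CDKN2C fell by 0.74, CDKN2B by 0.51 and CDKN2D by 0.49 on the log2 scale, while CDKN2A was at -0.13 (adjusted p = 0.0791 by edgeR). Without the siControl or the siNONO library of Set 3, CDKN2A stood at -0.06, and with library size alone in place of TMM it was called lower at -0.15 (adjusted p = 0.0495 by edgeR). CDKN1C, which encodes p57, fell by 0.31. Without the siControl or the siNONO library of Set 1, CDKN2D stood at -0.31 and its call was lost, with adjusted p-values by edgeR of 0.151 and 0.131. CDKN2D and CDKN1C were not called with DESeq2 (adjusted p = 0.0823 and 0.0684), nor CDKN2B with limma on log2(TPM + 1) (adjusted p = 0.0666).

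Genes whose products phosphorylate, dephosphorylate or bind CDKs fell almost throughout. Of 8 tested, 7 fell and none rose, with a median log2 fold change of -0.66. CDKN3, a phosphatase of CDKs, had 77.17, 86.06 and 73.80 TPM in siControl and 25.63, 26.88 and 25.31 TPM in siNONO, or 33.6% of the siControl level by counts, with a log2 fold change of -1.57 (standard error 0.0622, adjusted p = 1.23e-09 by edgeR). The activating phosphatases CDC25A, CDC25B and CDC25C fell by 0.86, 0.76 and 0.62 on the log2 scale. The inhibitory kinases that oppose them also fell, WEE1 by 0.70 and PKMYT1 by 0.52. These phosphatases and the kinases that oppose them thus moved in the same direction. Of the small CDK-binding proteins, CKS2 fell by 0.41 while CKS1B stood at 0.07 with overlapping groups (adjusted p = 0.216 by edgeR). Leaving out 1 library, CKS1B ran from 0.04 to 0.11, and it was not called in any of the 15 alternatives.

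Of 15 genes of cyclin destruction, 8 fell, 2 rose and 5 were not called, with a median of -0.20. FBXO5, an inhibitor of the anaphase-promoting complex (APC/C) that destroys cyclins A and B, fell by 0.93, and UBE2S, the enzyme that extends ubiquitin chains on its substrates, fell by 0.65. The genes with the highest values were AMBRA1, an adaptor for degradation of the D cyclins, at 0.17 and CDC23, an APC/C subunit, at 0.12, and neither call held throughout. AMBRA1 was not called without the block (adjusted p = 0.0752 by edgeR), and CDC23 stood at -0.02 with limma on log2(TPM + 1). Both calls were also lost when the siControl or the siNONO library of Set 2 or of Set 3 was left out, and the number of higher calls then fell from 2 to 0.

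The 16 cyclins and CDKs that act in transcription showed no common direction, with 6 lower, 6 higher and a median of 0.02. CDK7, the catalytic subunit of the CDK-activating kinase, rose by 0.49 and CDK8, a kinase of the Mediator complex, by 0.38, whereas its paralogue CDK19 fell by 0.39. The call of CDK8 was lost with limma on log2(TPM + 1), at 0.30 (adjusted p = 0.0932). CDK11B fell by 0.55 and its near-identical neighbour CDK11A, named for this likeness and outside the naming rule, by 0.18, and the division of reads between this pair is uncertain. Other cyclins and CDKs split evenly too, with 7 lower and 7 higher of 21 tested. CDK6, on chromosome 7 (92234235 to 92465887, minus strand), had 19.37, 18.21 and 19.19 TPM in siControl and 9.71, 9.61 and 9.32 TPM in siNONO. Its log2 fold change of -1.0 (standard error 0.0388, adjusted p = 1.06e-09 by edgeR) was far larger than that of CDK4. CDK3 fell by 1.07 from a low level of between 4.35 and 5.53 TPM. The highest values of this list were those of CDK5, best known from neurons, at 0.51 and CCNP at 0.58. The groups of CCNP overlapped, and its call was lost without the siControl or the siNONO library of Set 1 or of Set 3, with adjusted p-values by edgeR from 0.0839 to 0.121. CCNF and CCNG1, chosen after their values were seen, were at -0.88 and 0.44.

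The retinoblastoma, E2F and DREAM genes control transcription of many of the members. Of 20 tested, 12 fell, 5 rose and 3 were not called, with a median of -0.39. FOXM1, a transcription factor for the genes of G2 and mitosis, had 66.17, 65.92 and 73.71 TPM in siControl and 24.90, 28.22 and 28.66 TPM in siNONO. With no overlap between the groups, FOXM1 fell by 1.26 on the log2 scale (standard error 0.0431, adjusted p = 3.62e-10 by edgeR), lower than that of any member. E2F2, an activating E2F, fell by 0.78. E2F5, an E2F of the repressing class, rose by 0.67 on the counts and by 1.04 with limma on log2(TPM + 0.1), and TFDP2, a dimer partner of the E2Fs, rose by 0.44. RBL2 and RBBP4, chosen after their values were seen, were called higher at 0.15 and 0.19 but reached -0.07 and -0.03 under other settings. Without the siNONO library of Set 2, 3 genes of the list rose in place of 5.

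**Figure D5:**
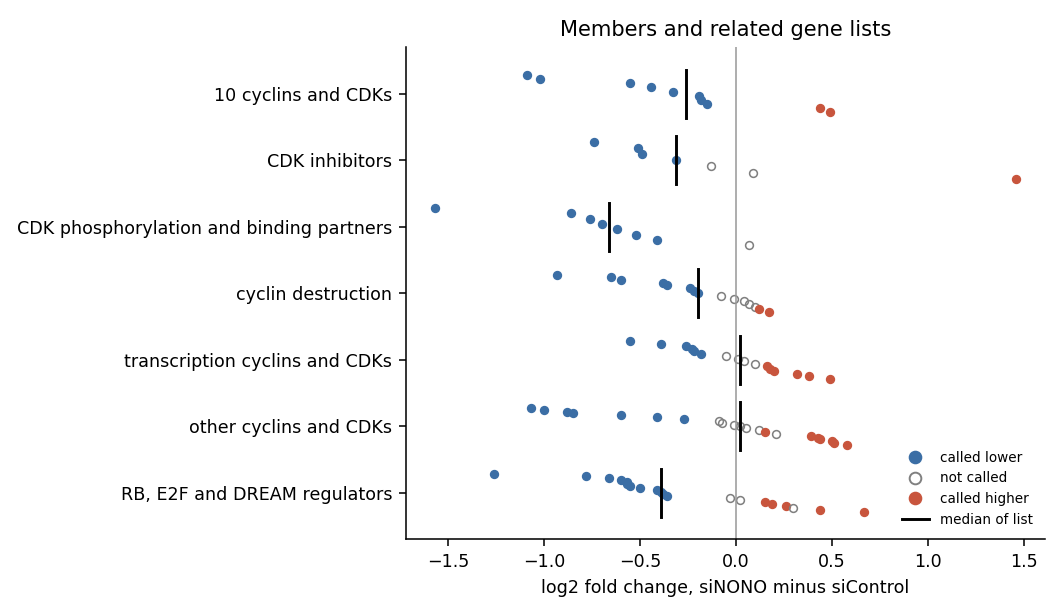
Log2 fold change of siNONO over siControl for the 10 members and the genes tested in 6 related lists, with blue for called lower, red for called higher, open grey for not called and a black bar at the median of each list. The medians run from -0.66 for the CDK phosphorylation and binding partners to 0.02 for the transcription and other cyclins and CDKs, and CDKN1A stands alone at 1.46.

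The genes whose log2 CPM most resembled that of CDK1 over the 6 libraries, by Pearson's r among 13334 genes, were RFC1 at 0.9992, VRK1 at 0.9986, RHOA at 0.9986, TRIM52 at 0.996 and KANTR at 0.9948. For CCND1 they were KRTAP2-3 at 0.9996, CA2 at 0.9995, RFX5 at 0.9994, SP110 at 0.9993 and PDIA4 at 0.9987. The 6 libraries form 2 groups of 3, so any gene with a steady difference between the groups scores high, and the values describe these libraries only. The likeness is one of shape and not of size. The genes most like CCND1 had log2 fold changes of between 0.47 for RFX5 and 2.36 for SP110, against 0.44 for CCND1 itself. The genes most like CDK1 had log2 fold changes of between -0.16 for RHOA and -0.47 for TRIM52.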

How the data were processed

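RNA of 3 siControl and 3 siNONO libraries of HCT116 cells was prepared with a stranded mRNA kit after selection of polyadenylated RNA. After trimming and alignment with STAR to GRCh37 with a GENCODE annotation, the authors deposited estimated counts, TPM and FPKM per gene from RSEM 1.3.1, with the length of each gene in bases as the abundance-weighted mean of its transcripts. The FPKM values deposited were not used in any test. The estimated counts were rounded to whole numbers and tested in R 4.3.3 with edgeR 4.0.16 (TMM scaling, filterByExpr, the quasi-likelihood F-test in its edgeR 3 form) with the Set as a block, and p-values were adjusted over 17000 genes by the Benjamini-Hochberg method, with calls at an adjusted p of at most 0.05. limma 3.58.1 was fitted to log2(TPM + 1) and log2(TPM + 0.1), and DESeq2 1.42.0 to the counts. The log2 CPM for likeness used a prior count of 2.

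The Sets were checked for pairing through deviations from group means over 13282 genes. Libraries of the same Set correlated at 0.2, 0.112 and 0.31 for Sets 1, 2 and 3. Across Sets 1 and 2 the values were 0.0943 and 0.0962, so Set 2 was hardly set apart from Set 1. Pairs of a Set 3 library with another Set gave between -0.238 and -0.154. The Sets were taken to pair the libraries, though this rests mainly on Set 3. The study's methods name a batch term without saying what the batch was. All replicate pairs differed by more than sampling noise (chi-square per degree of freedom from 2.71 to 9). Total counts per library ran from 21765393 to 32659002. Gene identifiers were joined to symbols and GRCh37 positions through GENCODE 44 lifted to GRCh37, and 62211 of 62492 (99.6%) matched. The scripts were tested on simulated data with 200 of 17000 genes changed, where 79% of these were recovered, with 9 false calls.

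The members and lists were chosen with earlier results of these data known. Named were the members, NONO, every CDK inhibitor and every CDK phosphorylation or binding partner, the 2 highest and 2 lowest genes of each other list whose mean log2 CPM reached 1, and the 5 genes most like CDK1 and CCND1. Exact permutation tests over libraries were two-sided.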

Additional observations from a re-analysis of the deposited data

How the results depend on the processing

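Each log2 fold change was recomputed under 15 alternatives, except those of the genes named for likeness to CDK1 or CCND1. The alternatives were other scalings, filters, tools and units, the fit without the Set, and leaving out each library. Of the members, CCND1, CDK4, CCNE1, CCNE2, CCNA2, CCNB1, CCNB2 and CDK1 kept their call in all 15. CCND3 kept its estimate of -0.18 but not its call without the replicate block and with DESeq2. Leaving out 1 library, CCND3 ran from -0.23 to -0.14 and CDK2 from -0.17 to -0.12, with some calls lost. Without the replicate block 6164 genes were called in place of 7924. DESeq2 called 5227, and limma 5257 on log2(TPM + 1) and 5250 on log2(TPM + 0.1). Of the CDK inhibitors, 2 and not 4 were lower with DESeq2, and 5 with library size alone. Higher calls in cyclin destruction, 2 in the main analysis, numbered 1 with library size alone in place of TMM, 0 without the replicate block, with DESeq2 and with limma on either scale, and 0 to 2 when 1 library was left out. Higher calls among transcription cyclins and CDKs were 3 in place of 6 without the block and on both limma scales. Higher calls among other cyclins and CDKs were 4 in place of 7 with DESeq2. Higher calls among retinoblastoma, E2F and DREAM genes were 3 in place of 5 with DESeq2, 2 on both limma scales and 3 to 5 with 1 library left out. Among the called genes that were chosen by the naming rule and recomputed, CDC23 alone reversed, to -0.02 on both limma scales. CDKN1B and CKS1B, named by the rule but not called, moved to 0.0 on both limma scales. Outside that rule, RBL2 and RBBP4, both called higher, fell as low as -0.07 and -0.03, and some related genes that were not called also changed sign. The causes were not tested. A single duplex, 3 libraries per group and short-read counts without molecular identifiers limit these values, and protein levels and cell-cycle phase were not analysed here.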
